A study of Mus musculus with 4 samples.

Results

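To describe early against late granulocyte maturation, 2 small clusters of bone marrow cells were compared, c5, here called myeloid, and c6, here called neutrophil-like. The markers given below do not place c5 at an early granulocyte stage alone. For every gene, the log2 fold change of c6 against all cells outside it was subtracted from that of c5, after each had been centred on its median over expressed genes, those at or above the median mean expression. Of 20062 genes, 15139 had such a contrast. The others stood at the same limit in both tables, 4723 at the lower limit and 200 at the upper limit. The tables came from a study of hematopoietic stem cells (HSC) purified from mouse bone marrow at steady state, with 2 samples labelled old and 2 labelled young. All 4 came from mice of the Gfp-Lc3 genotype, in which the autophagosome protein LC3 carries a green fluorescent tag, so no animals without the transgene were included. Droplet libraries and sorted single cells were both made, and neither the assay behind the tables nor the samples that gave cells to c5 and c6 are given in the sources used here. Age in weeks, sex and the promoter that drives the transgene are not stated in the labels. The comparison has no replicates and no test of its own.

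A neutrophil fills its granules in waves while it matures. Myeloperoxidase and the serine proteases are packed into primary granules at the promyelocyte stage, lactoferrin and lipocalin into secondary granules at the myelocyte stage, and gelatinase into tertiary granules later still. Proliferation ends as the secondary granules form, and the nucleus is then reshaped while receptors for chemokines and microbes appear at the surface. PU.1 (Spi1), RUNX1 and C/EBP alpha act early in this sequence, and C/EBP epsilon is required for the secondary granule genes.

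Several features of the tables set how the contrast can be read. The authors' deposited fold changes were limited to the range from -4 to 4, so a value at the limit stands for an estimate of a 16-fold difference or more. A contrast with c5 at 4 or c6 at -4 is therefore a lower bound, written here as "at least", and one with c6 at 4 or c5 at -4 is an upper bound, written as "or lower". Of 10027 expressed genes, 9978 had a contrast, of which 7149 had both values inside the limits, 2779 were lower bounds and 50 were upper bounds. The authors' deposited tables placed 7 expressed genes at -4 in c5 and 2778, or 27.7%, at -4 in c6. Of weaker genes, those below the median mean expression, 8595, or 85.7%, were at -4 in c6. The authors called 7155 genes lower in c6, 6920 of them expressed, so most weaker genes at -4 were not called. A bound that rests on an uncalled value is not an established minimum difference. The median fold change of expressed genes was -0.24 in c5 and -2.24 in c6, from the authors' deposited tables, so most genes stood far lower in c6 than in the cells outside it. Centring moved every contrast down by 2.00 relative to plain subtraction. A negative contrast above -2.0 is therefore positive without centring, and where this concerns a named group both values are given.

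**Figure D1:**
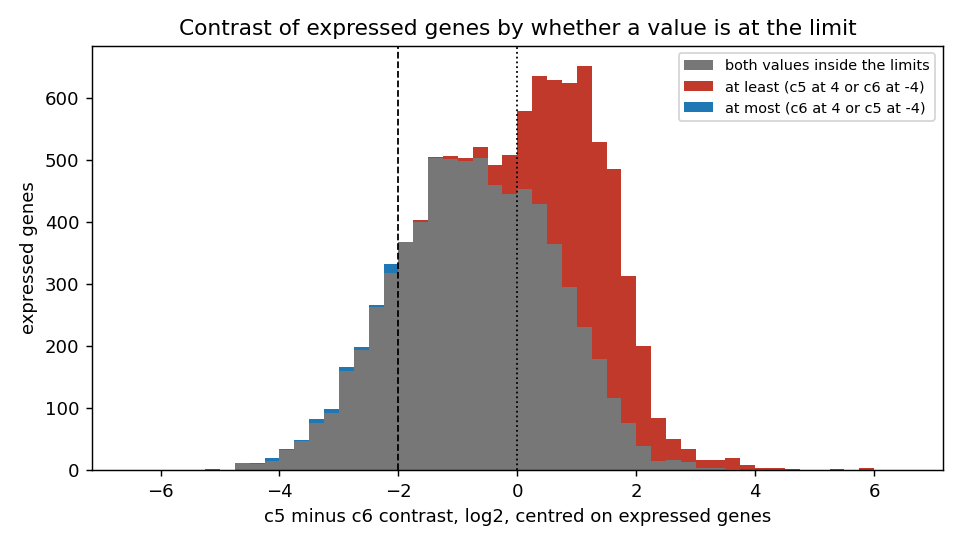
Number of expressed genes (vertical axis) by centred c5 minus c6 contrast (horizontal axis, log2), with genes that have a deposited value at a limit in colour. The dotted line marks a contrast of 0 and the dashed line equal deposited fold changes, about 2.00 lower; most contrasts above 1 are lower bounds.

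Among all 15139 genes with a contrast, 5213 had a contrast of 1 or more, a 2-fold difference toward c5, and 4033 had one of -1 or less. These were 34.4% and 26.6% of the genes and are the background for the counts below. With plain subtraction 72.7% reached 1 and 5.12% reached -1. Among expressed genes 24.3% reached 1 and 30.6% reached -1, or 69.4% and 3.1% with plain subtraction. Weaker genes thus reached 1 more often than 34.4%. A list made largely of weaker genes is not set apart by passing that share. The median contrast was 0.31 over all genes and -0.05 over expressed genes, and the quartiles of expressed genes were -1.28 and 0.96. Genes just inside and just outside the threshold of 1 differed in the sixth digit, at 1.00001 and 0.999992. The authors' calls, an adjusted p-value under 0.05 in their own test against the cells outside the cluster, covered 1439 genes higher (7.17%) and 1865 lower (9.3%) in c5. In c6 they covered 1044 genes higher (5.2%) and 7155 lower (35.7%). Among expressed genes the calls were 10.5% higher and 18.5% lower in c5, and 7.53% higher and 69.0% lower in c6, against which the list counts of calls are to be read. Both tables share nearly all of their comparison cells, so the values of each are given side by side and no overlap between them is read as a result.

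The markers chosen for early and late granulocytes separated the pair in part. Mpo and Elane separated the clusters, while Lcn2, which encodes the iron-siderophore binding lipocalin, S100a8, a subunit of calprotectin, and Cebpe, the C/EBP factor of the myelocyte stage, were at 4 in both authors' deposited tables. Of 7 granulocyte-monocyte progenitor markers, 6 were called higher in c5 and 1 in c6, where none was at the upper limit. Of 10 maturing neutrophil markers, all 10 were called higher in c5 and all 10 in c6, with 8 at the limit in c5 and 10 in c6. The c5 cells thus carried primary and secondary granule transcripts together with monocyte transcripts, which are described further on, so the markers do not place c5 at an early granulocyte stage alone. Whether single c5 cells held both kinds of transcript cannot be told apart from a mixture of cells in these tables, and how doublets were treated is not stated in the labels. On the tables' own values, c5 was estimated to hold 1.67% and c6 1.02% of the cells.

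Mpo, Elane, Lcn2 and S100a8 are shown by their promoters, because the first pair separated c5 from c6 and the second pair was at the limit in both. Each sequence runs from 250 bases before to 50 bases after the RefSeq start, on GRCm38.p6, 5′ to 3′ on the gene's strand. Capitals mark matches, on either strand, to GAGGAA, the core bound by PU.1, and to TTNNGNAA, a C/EBP half-site pair. TGTGGT, the core bound by RUNX factors, was also searched and had no match in these 4, and no matches overlapped.
Mpo (chr11:87793534-87793833, plus strand): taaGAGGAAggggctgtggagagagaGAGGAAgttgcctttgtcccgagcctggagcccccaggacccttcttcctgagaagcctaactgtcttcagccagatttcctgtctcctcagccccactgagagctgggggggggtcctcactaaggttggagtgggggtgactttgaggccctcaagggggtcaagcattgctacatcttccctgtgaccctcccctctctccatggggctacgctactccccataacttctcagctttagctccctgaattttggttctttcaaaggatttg
Elane (chr10:79886062-79886361, plus strand): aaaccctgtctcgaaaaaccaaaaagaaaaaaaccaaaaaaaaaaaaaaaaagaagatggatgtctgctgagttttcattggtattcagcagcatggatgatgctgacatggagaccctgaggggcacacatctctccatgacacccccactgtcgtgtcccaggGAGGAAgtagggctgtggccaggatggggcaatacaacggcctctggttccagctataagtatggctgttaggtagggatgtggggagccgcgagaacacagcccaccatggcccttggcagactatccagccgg
Lcn2 (chr2:32387690-32387989, minus strand): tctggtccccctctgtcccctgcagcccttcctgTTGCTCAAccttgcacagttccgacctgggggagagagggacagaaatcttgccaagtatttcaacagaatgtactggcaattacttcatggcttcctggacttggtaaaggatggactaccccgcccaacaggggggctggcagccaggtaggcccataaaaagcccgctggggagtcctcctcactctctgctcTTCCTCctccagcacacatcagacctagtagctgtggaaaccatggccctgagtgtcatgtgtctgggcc
S100a8 (chr3:90668821-90669120, plus strand): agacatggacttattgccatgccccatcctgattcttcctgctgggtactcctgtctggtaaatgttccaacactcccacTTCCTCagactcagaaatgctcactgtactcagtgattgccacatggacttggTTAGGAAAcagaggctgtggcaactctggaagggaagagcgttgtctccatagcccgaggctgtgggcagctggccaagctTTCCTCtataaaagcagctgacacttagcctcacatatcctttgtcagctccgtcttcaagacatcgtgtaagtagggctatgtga
GAGGAA had 2 matches in Mpo, 1 in Elane, 1 in Lcn2 and 2 in S100a8. TTNNGNAA had no match in Mpo or Elane and 1 each in Lcn2 and S100a8. Of the other promoters examined, Prtn3 had no TTNNGNAA match, S100a9 and Ltf had 2 each, Ngp had 3 and Camp had none. Among 32851 mouse promoters of the same length, 40.7% held TTNNGNAA, 28.3% GAGGAA and 16.8% TGTGGT, so a match is common. Of 10 genes asked for, 9 had a promoter, and Cebpe is named only.

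Primary granule genes stood higher in c5 than in c6. All 11 listed genes had a contrast, 9 of them at 1 or more and none at -1 or less, and the list median was 2.75. The authors called 7 of the 11 higher and 1 lower in c5, and none higher and 4 lower in c6. Mpo (chromosome 11 from 87793581 to 87804413, plus strand, GRCm38), which makes hypochlorous acid, stood at 4 in c5 and at -0.75 in c6 in the authors' deposited tables. Its contrast was at least 2.75, and the authors' adjusted p-value was 9.04e-14 in the deposited table of c5 and 0.922 in that of c6. Rebuilt from the overall mean and the estimated shares of cells, the mean level of Mpo was at least 2.96 per 10000 in c5, against 0.138 per 10000 in c6. Elane (chromosome 10 from 79886247 to 79888215, plus strand), which encodes neutrophil elastase, stood at 4 in c5 and -1.32 in c6 in the authors' deposited tables, a contrast of at least 3.32. For Ctsg, the cathepsin G gene (chromosome 14 from 56099881 to 56102574, minus strand), the authors' deposited tables gave 4 in c5 and -1.49 in c6, a contrast of at least 3.49. None of the 3 was called in c6, so their levels there were not distinguished from those of the cells outside it, whereas all 3 were called higher in c5.

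Other genes of the primary granule program differed in where the difference came from. Prtn3, which encodes proteinase 3 and lies next to Elane on chromosome 10 (79874476 to 79883174, plus strand), stood at 0.28 in c5 and at -4 in c6 in the authors' deposited tables. It was called in c6 and not in c5, with an adjusted p-value of 7.27e-45 in the authors' deposited table, and its contrast was at least 2.28. Prss57, another granule serine protease gene, stood at 3.29 in c5 and -0.62 in c6 in the authors' deposited tables, a contrast of 1.91. Ctsc, whose product activates the granule serine proteases by cutting off their leader dipeptide, stood at 0.92 in c5 and -3.99 in c6 in the authors' deposited tables, a contrast of 2.90. Calr, a chaperone of myeloperoxidase in the endoplasmic reticulum, had -0.01 in c5 and -3.23 in c6 in the authors' deposited tables, a contrast of 1.22 that is negative when all genes are used for centring. Cst7, a cathepsin inhibitor gene, was at 4 in c5 and -4 in c6 in the authors' deposited tables. This is the widest contrast toward c5 that the limits allow, at least 6.0, but Cst7 was called in c5 only and was a weaker gene. Bpi had the same pair of values but was called in neither table. Ms4a3, a progenitor marker, stood at 4 in c5 and 1.71 in c6 in the authors' deposited tables, and Srgn, the proteoglycan that packs granule proteins, had a contrast of -0.15 that becomes 1.85 without centring.

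**Figure D2:**
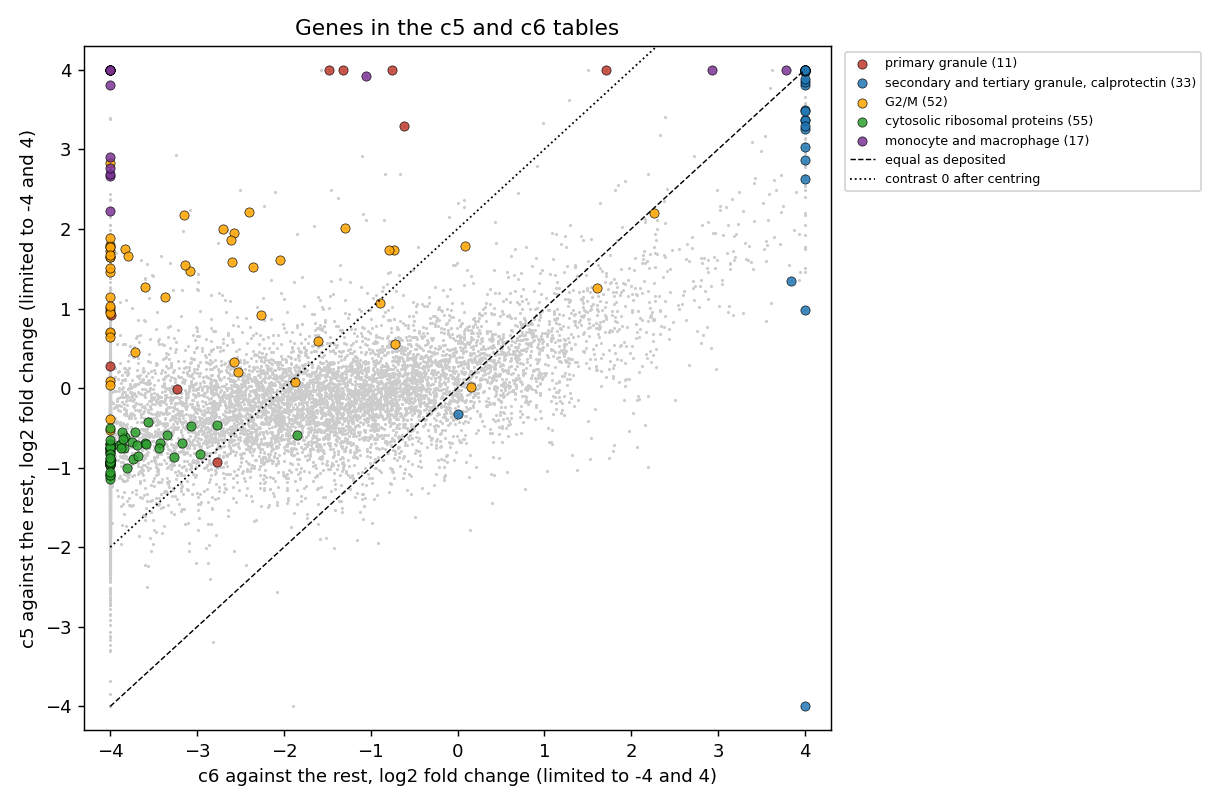
Deposited log2 fold change against the cells outside the cluster, c5 on the vertical axis and c6 on the horizontal axis, for expressed genes (grey) and all members of 5 gene groups (coloured, with the number of genes). Genes on the dashed line had equal deposited values and genes on the dotted line a centred contrast of 0; primary granule genes lie above both lines except Srgn, while secondary granule and calprotectin genes pile up at 4 in c6.

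Secondary granule genes did not separate the clusters within the reach of the tables. Of 11 listed genes, 9 were at 4 in both authors' deposited tables and have no contrast, among them Ltf, Camp, Ngp, Lcn2, Chil3 and Pglyrp1. The authors called 10 of the 11 higher in c5 and all 11 in c6. Ltf, the lactoferrin gene, lies on chromosome 9 from 111019271 to 111042767 (plus strand), Camp, the cathelicidin gene, on chromosome 9 from 109847379 to 109849617 (minus strand) and Lcn2 on chromosome 2 from 32384633 to 32388252 (minus strand). Lyz2, which encodes lysozyme, stood at 3.03 in c5 and at 4 in c6 in the authors' deposited tables, a contrast of -2.97 or lower that is -0.97 or lower without centring. Ceacam1, an adhesion molecule, stood at 3.97 in c5 and 4 in c6 in the authors' deposited tables, within 0.03 of the limit in both. Olfm4, at 4 in both authors' deposited tables, was the member not called in c5, with an adjusted p-value of 0.219 there.

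Tertiary granule genes were mostly high in both clusters, with 8 of 9 at the upper limit in c6. Of 9 listed genes, 7 had a contrast and all 7 were at -1 or less, with a median of -2.50. Without centring the median was -0.50 and 1 of the 7 reached -1. Of the 7, 6 were upper bounds with c6 at 4, which centring places below -2.0 whatever the value in c5. The count after centring is therefore not read as a result. The authors called 8 of the 9 higher in each cluster. Mmp9, the gelatinase gene, stood at 3.89 in c5 and 4 in c6 in the authors' deposited tables. Mmp8, the neutrophil collagenase gene, stood at 3.84 in c5 and 4 in c6. It was kept in this list although collagenase is usually assigned to secondary granules. Adam8, which encodes a membrane metalloprotease, stood at 2.87 in c5 and 4 in c6 in the authors' deposited tables, a contrast of -3.13 or lower. Fpr1, a receptor for formylated bacterial peptides, stood at 3.36 in c5 and 4 in c6 in the authors' deposited tables. The exception in calls was Qsox1, a sulfhydryl oxidase gene, at -0.33 in c5 and 0.01 in c6 in the authors' deposited tables, called in neither.

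Calprotectin subunits were at the limit in both clusters, but S100a6 and S100a11 stood far lower in c5 than in c6. S100a8 (chromosome 3 from 90668978 to 90670035, plus strand) and S100a9 (chromosome 3 from 90692632 to 90695721, minus strand) were at 4 in both authors' deposited tables. S100a6, a calcium-binding gene of the same family, stood at 0.98 in c5 and at 4 in c6 in the authors' deposited tables, a contrast of -5.02 or lower, and -3.02 or lower without centring. S100a11 stood at 1.34 in c5 and 3.84 in c6 in the authors' deposited tables, a contrast of -4.50 with both values inside the limits. Its rebuilt mean level was 8.46 per 10000 in c5, against 43.3 per 10000 in c6. Anxa1, the annexin that restrains neutrophil recruitment, stood at 2.63 in c5 and 4 in c6 in the authors' deposited tables, and Anxa2 at 3.81 in c5 and 4 in c6. All 9 listed genes with a contrast were at -1 or less, and 4 of the 9 remained so without centring. Of the 9, 8 were upper bounds with c6 at 4, which centring places below -2.0 whatever the value in c5. The count after centring is therefore not read as a result. The stefin A genes Stfa1, Stfa2, Stfa3 and BC100530 are near-identical copies, so their separate values are uncertain, and none of them was called in either cluster. BC100530 stood at -4 in c5 and 4 in c6 in the authors' deposited tables.

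**Figure D3:**
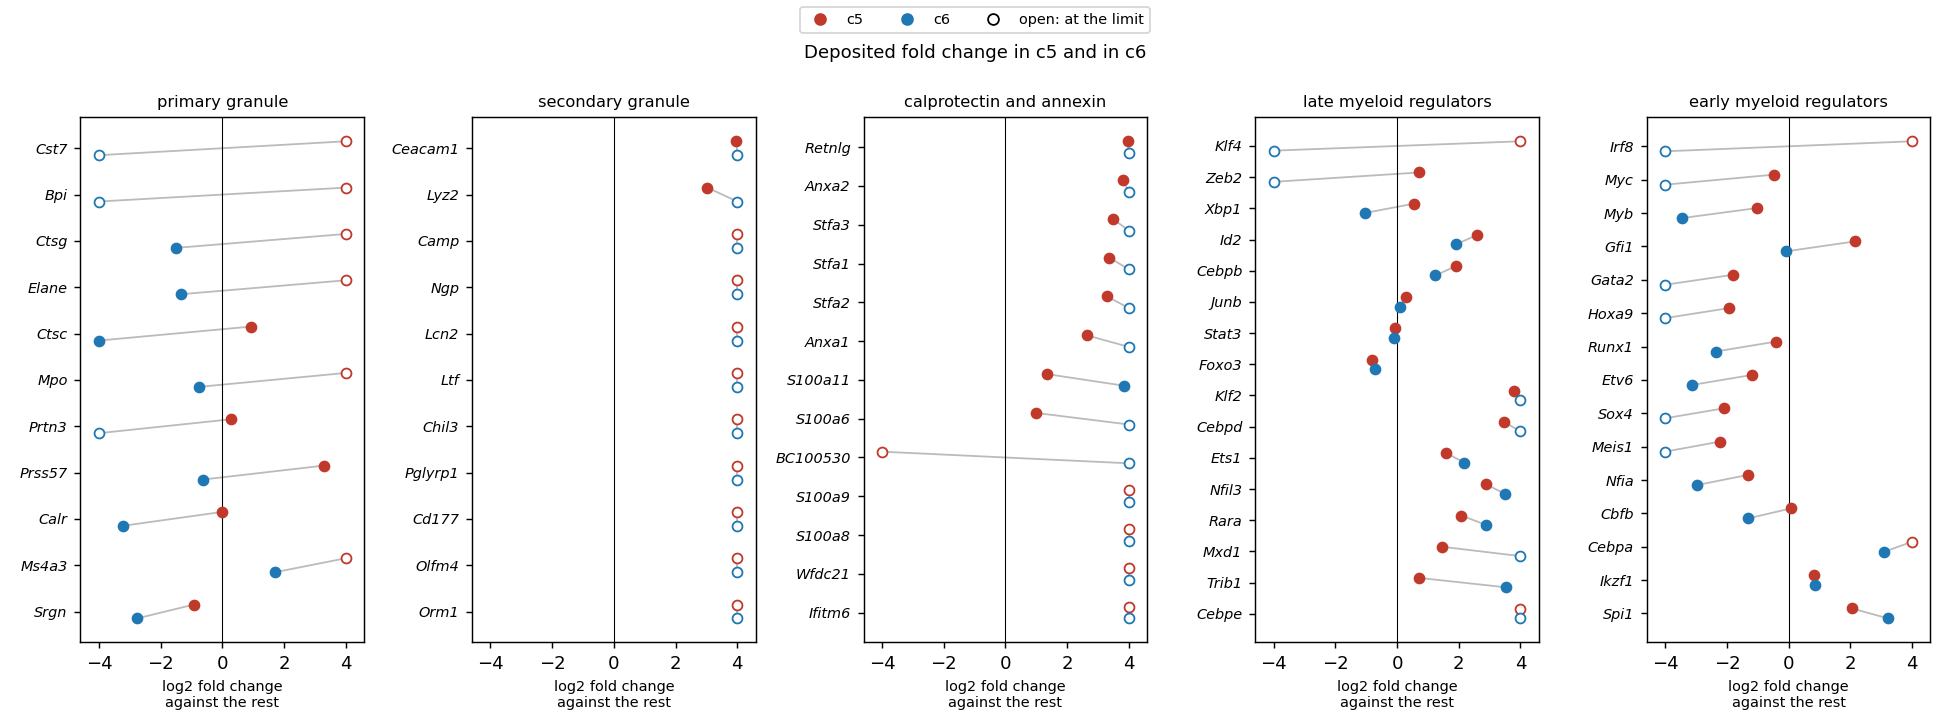
Deposited log2 fold change against the cells outside the cluster (horizontal axes) for each member (rows) of 5 gene lists, with c5 in red above c6 in blue in each row and open circles at a limit. Primary granule genes show c5 right of c6, most secondary granule genes show both at 4, and Trib1, Mxd1, S100a6 and S100a11 show c6 far right of c5.

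Transcription factors of early myeloid cells had no common direction after centring, and most stood toward c5 without it. Of 15 listed genes, 2 had a contrast of 1 or more and 2 of -1 or less, and the list median was -0.06. Without centring, 12 were at 1 or more and 1 at -1 or less, with a median of 1.94. Irf8, which directs progenitors toward monocytes and dendritic cells, was at 4 in c5 and -4 in c6 in the authors' deposited tables, a contrast of at least 6.0. It was called higher in c5 with an adjusted p-value of 1.13e-13 in the authors' deposited table, and was not called in c6. Myc, a driver of growth, stood at -0.47 in c5 and -4 in c6 in the authors' deposited tables, a contrast of at least 1.52, and was called in c6 and not in c5. Spi1, which encodes PU.1, went the other way, with 2.06 in c5 and 3.23 in c6 in the authors' deposited tables and a contrast of -3.17, or -1.17 without centring. Cebpa, the C/EBP factor that starts granulocyte commitment, stood at 4 in c5 and 3.10 in c6 in the authors' deposited tables and was called higher in both, so its contrast of at least -1.10 leaves the direction unknown. Gfi1, a repressor needed for neutrophil production, stood at 2.15 in c5 and -0.10 in c6 in the authors' deposited tables, a contrast of 0.25 that is negative when all genes are used for centring. Gata2, a stem and progenitor factor, was called lower in both, at -1.80 in c5 and -4 in c6 in the authors' deposited tables.

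Regulators of the later steps mostly stood toward c6 after centring, and had no common direction without it. Of 16 listed genes, the authors called 12 higher and 1 lower in c5, and 10 higher and 2 lower in c6. Members with c6 at 4 fall below -2.0 by centring alone. Of 15 with a contrast, 12 were at -1 or less and 2 at 1 or more, with a median of -2.10, or -0.10 without centring, where 2 reached -1 and 3 reached 1. Mxd1, a MYC antagonist that accompanies exit from the cell cycle, stood at 1.46 in c5 and 4 in c6 in the authors' deposited tables, a contrast of -4.54 or lower. Trib1, a pseudokinase that limits C/EBP alpha protein, stood at 0.73 in c5 and 3.53 in c6 in the authors' deposited tables, a contrast of -4.81, and was called in c6 and not in c5. Both keep their sign without centring, at -2.54 or lower and -2.81. Cebpd stood at 3.47 in c5 and 4 in c6 in the authors' deposited tables, whereas Cebpb, the factor of emergency granulopoiesis, stood at 1.92 in c5 and 1.24 in c6 and turns positive without centring, at 0.67. Klf4, a monocyte factor, was at 4 in c5 and -4 in c6 in the authors' deposited tables and was called in c5 and not in c6. Zeb2, which also acts in monocyte and dendritic cells, stood at 0.72 in c5 and -4 in c6 in the authors' deposited tables, a contrast of at least 2.71.

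Monocyte and macrophage genes also stood higher in c5, and Irf8 and Klf4 belong to that list too. Of 17 listed genes, 15 had a contrast of 1 or more and none was at -1 or less. The median was 5.81, but 16 of the 17 contrasts were bounds, so the limits set its size. The authors called 12 of the 17 higher in c5, with 10 at the upper limit, and 1 higher and 1 lower in c6, with 14 at the lower limit. Ccr2, the chemokine receptor that brings monocytes out of the marrow, was at 4 in c5 and -4 in c6 in the authors' deposited tables. So were Ly86, F13a1, Fn1 and Cx3cr1, and all of these were called in c5 but not in c6. Ms4a6c stood at 2.69 in c5 and -4 in c6 in the authors' deposited tables and was called in both. Ctss, the cathepsin of antigen-presenting cells, stood at 3.92 in c5 and -1.05 in c6 in the authors' deposited tables, a contrast of 2.97. Only 4 of the 17 were expressed genes by the threshold used here. Of all weaker genes 85.7% were at -4 in c6 in the authors' deposited table, so 14 of 17 there is near the share of such genes. Summed over the list, the rebuilt level was about 7.45 per 10000 in c5, a lower bound for the genes at the limit, against 0.285 per 10000 in c6. The part of monocyte transcripts in the contrast of other genes was not tested. Csf1r, the macrophage growth factor receptor gene, was called higher in both clusters, at 4 in c5 and 3.78 in c6 in the authors' deposited tables.

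Surface receptors of mature neutrophils were mostly high in both clusters, and most of those with both values inside the limits were higher in c6. Of 20 listed genes, 15 were called higher in c5 and 17 in c6, and none lower in either. Of 12 with a contrast, 11 were at -1 or less and 1 at 1 or more. Members with c6 at 4 and c5 below 4 fall at -1 or less by centring alone. The count after centring is therefore not read as a result. Without centring 5 still reached -1, and the median of -2.46 became -0.46. Csf3r, the receptor for granulocyte colony-stimulating factor, stood at 1.58 in c5 and 3.38 in c6 in the authors' deposited tables, a contrast of -3.80. Clec4e, a receptor for fungal and mycobacterial glycolipids, stood at 0.95 in c5 and 3.29 in c6 in the authors' deposited tables, and was called in c6 and not in c5, as was Tlr2, a receptor for bacterial lipoproteins, at 0.86 in c5 and 2.63 in c6. Cxcr2, the chemokine receptor that draws neutrophils into blood, stood at 3.77 in c5 and 4 in c6 in the authors' deposited tables. Ly6g, Itgam and C5ar1 were at 4 in both authors' deposited tables. The exception was Ly6c1, at 0.21 in c5 and -4 in c6 in the authors' deposited tables, called in neither and a near copy of Ly6c2, so its value is uncertain.

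Progenitor receptors and secreted factors were mixed after centring, and leaned toward c5 without it. Of 11 progenitor receptors with a contrast, 3 were at 1 or more and 3 at -1 or less, with a median of 0.09. Without centring 7 were at 1 or more and none at -1 or less, with a median of 2.09. Cd48, which marks progenitors and is absent from HSC, stood at 4 in c5 and -1.57 in c6 in the authors' deposited tables, a contrast of at least 3.57. Flt3, the receptor of lymphoid-primed progenitors, stood at -0.06 in c5 and -4 in c6 in the authors' deposited tables, and Kit, the stem cell factor receptor, at -1.61 in c5 and -4 in c6. Cxcr4, the receptor that retains cells in the marrow, stood higher in c6, at 0.97 in c5 and 1.78 in c6 in the authors' deposited tables. Ly6c2 and Fcgr3 were at 4 in both. Of 8 chemokine and cytokine genes with a contrast, 3 were at 1 or more and 3 at -1 or less, or 5 and 1 without centring. Ccl9 was at 4 in c5 and -4 in c6 in the authors' deposited tables, called in c5 and not in c6, whereas Osm, the oncostatin M gene, stood at 1.03 in c5 and 3.36 in c6 and was called in c6 and not in c5.

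Most genes of the effector machinery that had a contrast stood higher in c6 after centring. Subunit genes of the NADPH oxidase, which makes superoxide, were called higher in both clusters, with Cybb, Ncf1 and Ncf4 at 4 in both authors' deposited tables and thus of unknown order. Rac2 stood at 1.60 in c5 and 2.88 in c6 and Cyba at 2.48 in c5 and 3.67 in c6 in the authors' deposited tables. Their contrasts of -3.28 and -3.19 were -1.28 and -1.18 without centring. Of 15 cytoskeleton and motility genes, 13 had a contrast of -1 or less and none of 1 or more, with a median of -2.66, or -0.66 without centring, where 6 reached -1 and 2 reached 1. Actb, the beta-actin gene, stood at 1.16 in c5 and 2.32 in c6 in the authors' deposited tables, and Lsp1, which binds actin in leukocytes, at 1.73 in c5 and 3.18 in c6. Capg, an actin-capping gene, stood at 0.07 in c5 and 1.86 in c6 in the authors' deposited tables, and was called in c6 and not in c5.

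Nuclear envelope genes had no common direction across the scales, and glycolysis genes mostly stood toward c6 after centring. Of 7 nuclear envelope genes, 3 were at -1 or less and 1 at 1 or more, with a median of -0.56 that is 1.44 without centring, where 4 reached 1 and 1 reached -1. The authors called 4 of the 7 higher and none lower in c5, and 3 higher and 3 lower in c6. Syne1, which links the nucleus to the cytoskeleton, stood at 1.92 in c5 and 4 in c6 in the authors' deposited tables, a contrast of -4.08 or lower. Lbr, the lamin B receptor needed for nuclear lobing, was called higher in both, at 1.25 in c5 and 1.61 in c6 in the authors' deposited tables. Lmna, the A-type lamin gene, stood at 0.23 in c5 and -4 in c6 in the authors' deposited tables. Of 20 glycolysis genes, 17 were at -1 or less and none at 1 or more, and the median of -2.25 was -0.24 without centring, where 4 reached -1 and 3 reached 1. Pygl, the glycogen phosphorylase gene of liver and neutrophils, stood at 1.75 in c5 and 4 in c6 in the authors' deposited tables, and Slc2a3, a glucose transporter gene, at -0.14 in c5 and 2.09 in c6. Both remained at -2.23 or lower without centring.

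Cell cycle genes stood higher in c5 than in c6, and the median kept its sign under each centring. All 41 S phase genes had a contrast, 31 of them at 1 or more and none at -1 or less, with a median of 1.79, or 3.79 without centring. The authors called 9 of the 41 higher and 2 lower in c5, and none higher and 38 lower in c6. Of 52 genes of G2 and mitosis, 40 were at 1 or more and 3 at -1 or less, with a median of 2.58. The authors called 41 of the 52 higher and 1 lower in c5, and 2 higher and 40 lower in c6. Ube2c, which helps to degrade cyclins, stood at 2.82 in c5 and -4 in c6 in the authors' deposited tables, a contrast of at least 4.82. Top2a, the mitotic topoisomerase gene, stood at 1.66 in c5 and -3.80 in c6 in the authors' deposited tables, a contrast of 3.46. Rrm2, a subunit of ribonucleotide reductase, stood at 2.46 in c5 and -2.10 in c6 in the authors' deposited tables, a contrast of 2.56. Rad51ap1, a recombination gene, stood at 1.07 in c5 and -3.99 in c6 in the authors' deposited tables. The 3 members at -1 or less, named after their values were seen, were Hmgb2, Lbr and Hjurp, with contrasts of -2.05, -2.36 and -2.14. Without centring these were between -0.36 and -0.05. Hmgb2, a chromatin protein gene, was called higher in both, at 2.20 in c5 and 2.26 in c6 in the authors' deposited tables.

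**Figure D4:**
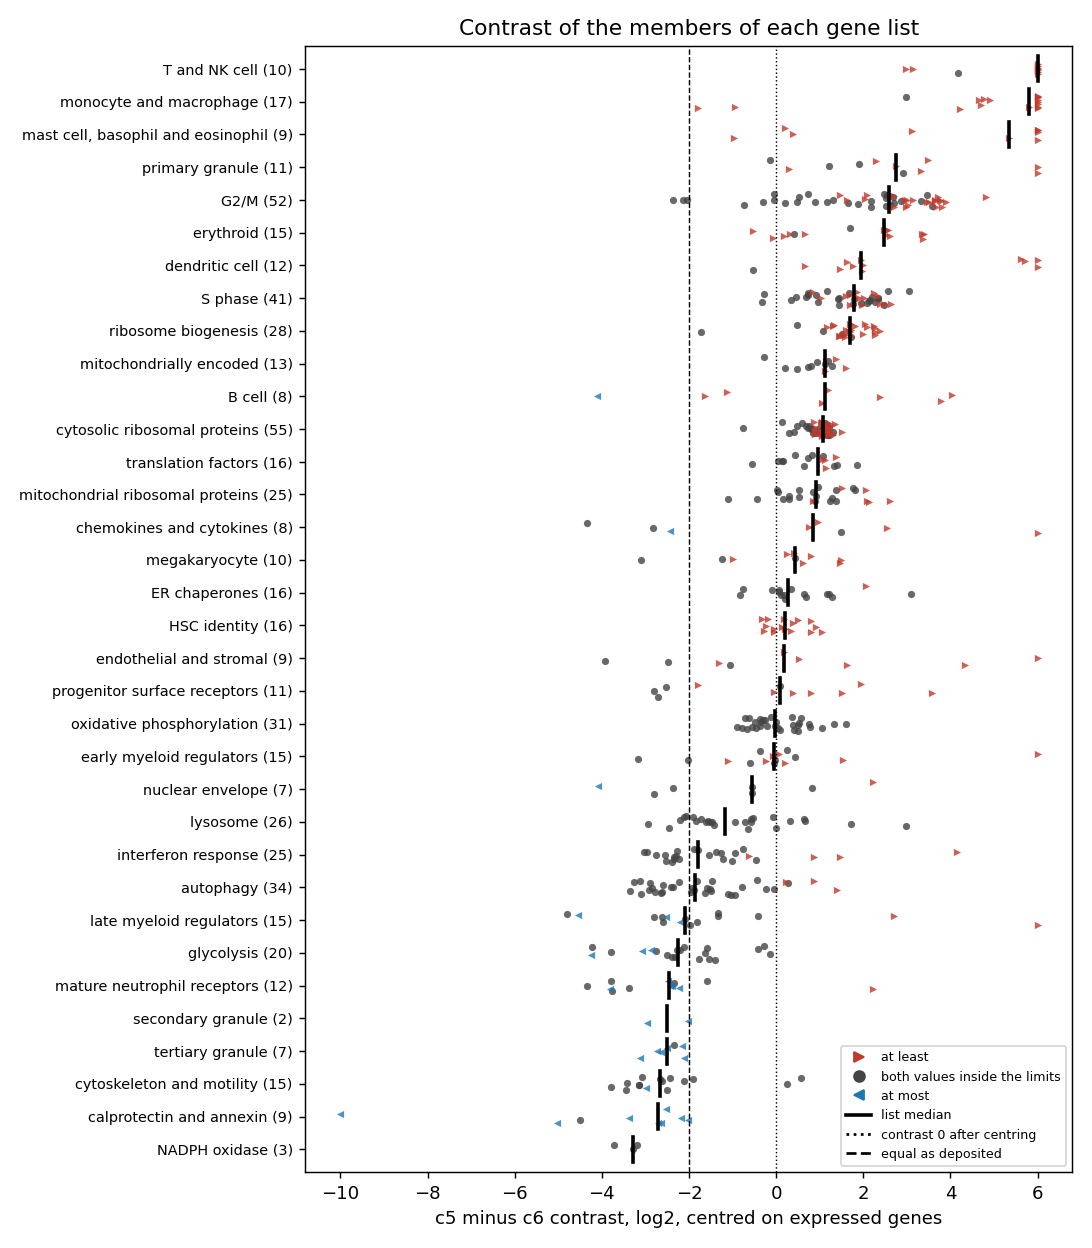
Centred c5 minus c6 contrast (horizontal axis, log2) of each member with a contrast in 34 gene lists (rows, with the number of members plotted), with triangles pointing right for lower bounds, triangles pointing left for upper bounds and a black bar at the list median. Primary granule, cell cycle and ribosome biogenesis genes lie mostly right of the dotted line at 0. Cytoskeleton and NADPH oxidase genes lie mostly left of the dashed line, where deposited values were equal. Glycolysis genes lie closer to the dashed line, with a median of -0.24 without centring. Of 7 tertiary granule genes, 6 are upper bounds with c6 at 4, which the limit alone places left of the dashed line.

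Genes that build ribosomes were called lower in c6, and few were called in c5. Of 28 ribosome biogenesis genes, 26 had a contrast of 1 or more and 1 of -1 or less, with a median of 1.68. The authors called none higher and 6 lower in c5, and none higher and 27 lower in c6, where 23 were at the lower limit. Nolc1, a nucleolar chaperone gene, stood at 0.27 in c5 and -4 in c6 in the authors' deposited tables, a contrast of at least 2.27, and Rrp12, a ribosome export gene, at 0.39 in c5 and -4 in c6. The exception was Polr1a, the catalytic subunit of RNA polymerase I, at 0.28 in c5 and 0.00 in c6 in the authors' deposited tables, called in neither and named after its value was seen.

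Transcripts of the ribosome itself were lower in both clusters, and further down in c6. All 55 cytosolic ribosomal protein genes were called lower in c5 and all 55 in c6. Their median fold change was -0.76 in c5 and -4 in c6 in the authors' deposited tables, and the median contrast of 1.07 became -0.41 when all genes were used for centring. Rpl4 stood at -0.50 in c5 and -4 in c6 in the authors' deposited tables. Summed over the list, the rebuilt level was 1480 per 10000 in c5, against 196 per 10000 or less in c6. Ribosomal protein genes have many processed copies, so counts of single members are uncertain. Of 16 translation factors, 8 were at 1 or more and none at -1 or less, with a median of 0.95 that turns negative when all genes are used for centring, and all 16 were called lower in c6, against 7 in c5.

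Mitochondrial and secretory pathway genes were mostly called lower in c6, with list medians between -0.03 and 1.13 after centring. Each of these medians is negative when all genes are used for centring. All 31 oxidative phosphorylation genes were called lower in c6, whereas 10 were called higher and none lower in c5. Their median contrast was -0.03, or 1.97 without centring, with 3 at 1 or more and none at -1 or less. Atp5g1, a subunit of the ATP synthase, stood at 0.19 in c5 and -3.41 in c6 in the authors' deposited tables. Of 25 mitochondrial ribosomal protein genes, 11 were at 1 or more and 1 at -1 or less, with 4 called higher and 2 lower in c5 and none higher and 24 lower in c6. All 13 mitochondrially encoded transcripts were called lower in both clusters, and their median contrast of 1.13 became -0.35 when all genes were used for centring. Of 16 endoplasmic reticulum chaperones, 9 were called higher in c5 and none in c6, where 15 were called lower. Sdf2l1, a chaperone cofactor gene, stood at 1.66 in c5 and -3.42 in c6 in the authors' deposited tables, a contrast of 3.08.

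Lysosome, autophagy and interferon genes changed direction with the centring. Of 26 lysosome genes, 2 were at 1 or more and 13 at -1 or less, and the median of -1.18 was 0.82 without centring, where 13 reached 1 and none reached -1. Ctsd, the aspartic protease cathepsin D, stood at 0.37 in c5 and 1.32 in c6 in the authors' deposited tables, opposite to Ctss, and both directions held on either scale. Of 34 autophagy genes, 1 was at 1 or more and 25 were at -1 or less, and the median of -1.85 was 0.15 without centring, where 9 reached 1 and 4 reached -1. The authors called 3 of the 34 higher and 5 lower in c5, and 6 higher and 8 lower in c6. Atg7, which activates LC3 for lipid attachment, stood at 0.47 in c5 and 1.74 in c6 in the authors' deposited tables, and Wipi1, which binds forming autophagosomes, at 1.09 in c5 and 2.20 in c6. Both were negative without centring too, at -1.26 and -1.12. Map1lc3b, the LC3B gene, had a contrast of -2.41, or -0.41 without centring. It is named outside the rule for its link to the transgene, and the sources used here do not say whether transgene reads were counted under it. Of 25 interferon response genes, 18 were at -1 or less and 2 at 1 or more. The median of -1.80 was 0.20 without centring, where 7 reached 1 and 1 reached -1. None of the 25 was called higher in either cluster, but Oas3, which was not on the list, was called higher in c6.

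Genes of other cell types were compared because either cluster could hold such cells. All 16 HSC identity genes were at the lower limit in c6 in the authors' deposited table and were called lower there, and 15 were called lower in c5, so neither cluster carried the HSC program at the level of the other cells. Their median contrast was 0.19, a lower bound that turns negative when all genes are used for centring. Nkg7, a gene of cytotoxic granules, had the highest contrast among expressed, called genes inside the limits with predicted genes left out, 4.18, from 2.93 in c5 and -3.25 in c6 in the authors' deposited tables. Of 11 T and NK cell genes, 8 were at 4 in c5 and 9 at -4 in c6, but the authors called only 2 higher in c5 and 1 in c6, and 2 of the 11 were expressed genes. Summed rebuilt levels of that list were about 3.35 per 10000 in c5, against 0.191 per 10000 in c6. Nkg7 alone gave 1.81 per 10000 of the sum in c5, and most members were at a limit in each cluster. Of 12 dendritic cell genes, 10 were at 1 or more, with 1 called higher and 2 lower in c5 and none higher and 7 lower in c6. The erythroid list had 9 of 15 at 1 or more, with 1 called higher in c5 and none in c6, and 8 of the 15 were expressed genes. Of the mast cell, basophil and eosinophil list, 10 genes were in the tables, 6 were at 1 or more and 1 was called higher in c5. Only 2 of the 10 were expressed genes. Of the B cell list, 5 of 8 with a contrast were at 1 or more and 1, Cd79a, at -1 or less on either scale. Cd79a was called in neither cluster. Of the 14 listed, 6 were expressed genes, and the authors called 1 higher and 1 lower in each cluster. The 1 called higher was Ighm, named outside the rule for its calls, at 4 in c5 and 3.63 in c6 in the authors' deposited tables. Of 10 megakaryocyte genes, 2 were at 1 or more and 2 at -1 or less, or 8 and 1 without centring. Of 9 endothelial and stromal genes, 3 were at 1 or more and 3 at -1 or less, or 5 and 1 without centring. The part of such cells in the contrast was not tested.

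The widest contrasts included genes outside the lists. Among expressed, called genes inside the limits, the 10 highest contrasts were Nkg7 at 4.18, Asf1b, Cenpe, Top2a, Cdca3, Lat2, Kif20a, Depdc1a, Mxd3 and Sdf2l1 at 3.08. Asf1b is a histone chaperone of replication, Cenpe and Kif20a are mitotic kinesins, and Lat2 is an adaptor of immune receptors. The 10 lowest were Elovl7 at -5.18, Chil5, Padi4, Abtb1, Entpd1, Ankrd33b, Oas3, Ctse, Tmcc1 and Dgkh at -4.55. Padi4, the enzyme that citrullinates histones when neutrophils release extracellular traps, stood at 0.24 in c5 and 2.98 in c6 in the authors' deposited tables, a contrast of -4.75. Elovl7 extends long fatty acids and Entpd1 degrades extracellular ATP. All 10 kept their sign without centring, the weakest at -2.55.

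Genes with a value at a limit were ranked apart, as bounds. The 10 highest lower bounds were Ccl5, Irf8 and Ccr2 at 6.0, then Ahnak, Rgs10, Ube2c, Lgals1, Ms4a6c, Rassf4 and Evl at 4.37. Ccl5, a chemokine gene of T and NK cells, was at 4 in c5 with an adjusted p-value of 0.0457 in the authors' deposited table, so its call was near the threshold. Lgals1, a galectin gene, stood at 2.74 in c5 and -4 in c6 in the authors' deposited tables and was called in both. The 10 lowest upper bounds were S100a6 at -5.02, Mxd1, Actn1, Pygl, Lrrk2, Dgat1, Syne1, Clec4d, Dhrs7 and Xdh at -3.60. Dgat1 catalyses the last step of triglyceride synthesis, Xdh encodes xanthine dehydrogenase and Lrrk2 a kinase expressed in myeloid cells. Of the 200 genes at 4 in both tables, 150 were called higher in c5 and 150 in c6, and 43 were expressed genes, so the authors' deposited tables leave the order of c5 and c6 unknown for the calprotectin subunits, the cathelicidin genes and lactoferrin.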

How the data were processed

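The files hold the authors' own comparisons of 7 clusters of cells, and 2 of the 8 tables were used, c5 and c6 each against the cells outside it. The deposited fold changes and mean expression are log2 values, and the deposited adjusted p-values are the authors'. Not given in the sources used here were the test, the assay, the number of cells and the depth per cell, so no interval can be had. Per the submitters' processing notes, Scanpy, GSNAP, HTSeq and GRCm38.p4 were used, with no role stated. If the p-values treat cells as replicates, a call describes these cells, not animals.

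The reference was checked from the values: over 990 genes the direct table of c1 against c2 was recovered to a median absolute difference of 0.00145 (log2) with the outside cells as reference, against 0.129 with all cells. The 2 tables were joined on gene name, each fold change less its median over expressed genes (mean expression at the median or higher), and c6 was subtracted from c5 (Python 3.11.15, pandas 2.3.3). Genes at -4 or at 4 in both were left out. Counts past a contrast of 1 or -1 take a bound only on its own side. Mean levels were rebuilt from the mean expression, which sums to 10000, and shares of cells estimated from the tables; 8 genes had an error text in place of a mean. Steps were tested on simulated data.

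Named genes are Mpo, Elane, Lcn2, S100a8 and Cebpe, members of the granule, regulator and receptor lists, up to 4 members of each other list with the widest contrast, and the 10 highest and 10 lowest contrasts inside and at the limits among expressed genes called in c5 or c6, leaving out predicted genes. A few genes within this rule are not reported here. Members and lists were chosen with earlier results of these data known, and no list is independent support. Gene coordinates are from GENCODE M21 and promoters from RefSeq. The alternatives were other centring, expressed or called genes only, no genes at a limit, rebuilt cluster means and a stricter fold.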

Additional observations from a re-analysis of the deposited data

How the results depend on the processing

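The size and sign of the contrast rest on the centring and on the limits, and no depth, standard error or cell count bounds them. No paired analysis was possible because the tables hold comparisons of clusters and no samples. The median contrast of 0.31 became 2.31 with no centring, -1.16 centred on all genes, 0.49 centred on the most expressed genes (top 25% by mean expression), -0.047 over expressed genes, -0.83 without genes at a limit and 0.38 over called genes. The 5213 genes at 1 or more became 11010 with no centring, 1721 centred on all genes, 2424 among expressed genes, 724 without genes at a limit, 2651 among called genes and 2322 at a contrast of 2. The 4033 genes at -1 or less became 775 with no centring, 6993 centred on all genes, 1636 among called genes and 2028 at a contrast of -2. The share of genes past either threshold that lay toward c5, 56.4%, was 93.4% with no centring, 19.7% centred on all genes, 61.5% centred on the most expressed genes, 44.3% among expressed genes, 16.5% without genes at a limit and 61.8% among called genes. With no centring, 28 of 34 list medians kept their sign. Among medians with an absolute value of 1 or more, those of the lysosome, autophagy and interferon lists turned, to 0.82, 0.15 and 0.20. The contrasts of Cebpa, Cebpb, Csf1r and Polr1a became 0.90, 0.67, 0.22 and 0.27. Centred on all genes, only 23 of 34 list medians kept their sign. Among medians with an absolute value of 1 or more, those of the cytosolic ribosomal protein, mitochondrially encoded and B cell lists became -0.41, -0.35 and -0.35. Smaller medians that turned negative included the mitochondrial ribosomal protein, endoplasmic reticulum chaperone and HSC identity lists. The contrast of Calr became -0.25. The B cell median was -1.37 over expressed and -0.21 over called members, and the dendritic cell median -0.54 without genes at a limit. Cluster means rebuilt with shares of cells turned no named gene, and neither did centring on the most expressed genes among those with an absolute contrast of 1 or more.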
